A study of Rattus norvegicus with 8 samples.

Results

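The tricarboxylic acid cycle enzymes described here are the products of 9 genes: Cs, Idh3a, Idh3b, Idh3g, Ogdh, Dlst, Suclg1, Mdh1 and Mdh2. They were taken by gene symbol, as every probe set whose only symbol in the platform annotation is one of these, with succinate dehydrogenase left out because it also belongs to the respiratory chain. This gave 13 of 31042 probe sets and 9 of 14217 genes. The muscle was the epitrochlearis, a thin forelimb muscle of mostly fast fibres, and each array held the RNA of 1 rat. All were male Sprague-Dawley rats, 6 weeks old. One group had received carbohydrate with whey protein hydrolysate, which is whey protein cut into peptides by enzymes (WPH, n = 4), and the other carbohydrate with an amino acid mixture of the same composition (AAM, n = 4). All 8 rats had been accustomed to swimming for 3 days, kept on 5 g of feed on the day before, made to swim for 2 h and then given a meal of 44 kJ by gavage, about 15% of a day's energy. The comparison asks whether the form of the dietary amino acids changes muscle gene expression. There was no unfed or unexercised rat, and neither the swim nor the meal as such can be assessed. The labels do not say which rats shared a swimming barrel or an array batch, and had these differed between the groups they could not be told apart from the meals.

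The cycle runs in the mitochondrial matrix and oxidises the acetyl group that carbohydrate, fat and amino acids are broken down to. Citrate synthase brings the acetyl group in, isocitrate dehydrogenase and the 2-oxoglutarate dehydrogenase complex release carbon dioxide and make NADH, succinate-CoA ligase makes a nucleoside triphosphate, and malate dehydrogenase restores oxaloacetate. In muscle, citrate synthase is a common measure of mitochondrial content, and endurance training is known to raise it.

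The labelled tissue was checked against markers. Of 11 fast fibre markers 10 were measured, with a median level of 13.6, and Tnnc2, the fast troponin C gene, had 14.1. The 9 measured slow fibre markers had a median of 10.6. The 7 skin and epithelium markers lay between 6.03 and 6.79, around the median of 6.66 over all probe sets. Levels are the authors' deposited values on a log2-like scale. Beyond choosing a gene's brightest probe set, a level cut of 10 and marking dim genes, levels of different probe sets are not compared further. Deposited differences between arrays were minute: the median probe set spanned 1.09e-05 over the 8 arrays and the median probe set of a cycle enzyme 7.50e-05. They cannot be read as fold changes. Values of single arrays are therefore given as deviations from the 8-array mean of that probe set, in millionths of a unit, and differences between the meals as standardized differences, that is, the WPH mean minus the AAM mean in units of the SD pooled from both groups.

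No cycle enzyme gene passed the test between the meals. By limma, 0 of the 13 probe sets passed an adjusted p of 0.05 and 0 had an unadjusted p below 0.05, where over all 31042 probe sets 0 passed (0%) and 1110 had an unadjusted p below 0.05 (3.58%). In the values as deposited, the 9 genes shared a pattern across arrays. Of the 9, 8 were highest in AAM replicate 3 and 7 were lowest in AAM replicate 1. The exceptions were Idh3a, highest in WPH replicate 3, Ogdh, lowest in AAM replicate 4, and Mdh1, lowest in WPH replicate 4. Array medians differed too, with 6.66279 in AAM replicate 2 and 6.66285 in AAM replicate 3. That gap is wider than the one between these arrays for Cs (29.2 and 41.8 millionths). The pattern, and the spreads and correlations below, were not recomputed after centring the arrays. Quantile normalization left 8 of the 9 genes with the same value on every array. AAM replicate 3 was the highest array for 18.6% of all genes and AAM replicate 1 the lowest for 15.6%. Among the 967 genes with a level above 10, as the 9 enzymes have, these shares were 27.4% and 29.7%. Both arrays were often extreme in the other direction as well. AAM replicate 3 was the lowest array for 18.6% of all genes and 24.8% of those with a level above 10. AAM replicate 1 was the highest for 16.6% and 17.9%.

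**Figure D1:**
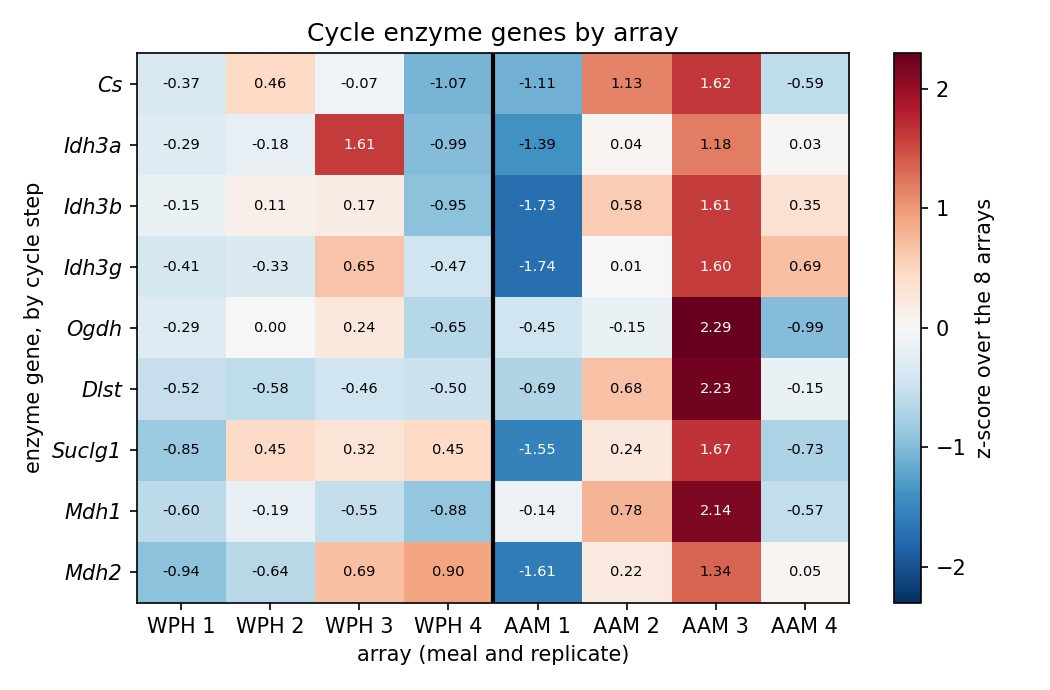
Heat map of the 9 enzyme genes, each by its brightest probe set (rows, by cycle step), on the 8 arrays (columns, WPH left of the line and AAM right of it), coloured and labelled by z-score over the 8 arrays. AAM 3 holds the highest value in 8 of 9 rows and AAM 1 the lowest in 7 of 9.

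Cs encodes citrate synthase, which joins acetyl-CoA to oxaloacetate and is the entry step of the cycle. Its brightest probe set, 1375295_at (mean level 12.03), had -9.61, 11.97, -1.82 and -27.6 millionths after WPH, against -28.7, 29.2, 41.8 and -15.3 millionths after AAM. The WPH values lay inside the range of the AAM values, whose SD of 34.1 millionths was 2.06 times that of WPH (16.5). The standardized difference was -0.505 (95% interval -1.90 to 0.928, n = 4 per group, exact permutation p = 0.514). Probe sets 1369967_at and 1384201_at also had AAM replicates 3 and 2 highest, with standardized differences of -0.537 and -0.416. On 1369967_at the lowest value, -89.7 millionths, was shared by WPH replicate 4 and AAM replicate 1. The last, 1396453_at, is dimmer (mean level 6.93), spanned only 10.5 millionths and went the other way, with 0.404 (-1.02 to 1.79). For Cs, 3 of 4 probe sets were thus lower after WPH, and each interval includes 0.

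Idh3a, Idh3b and Idh3g encode the catalytic alpha subunit and the beta and gamma subunits of the NAD-linked isocitrate dehydrogenase, which turns isocitrate into 2-oxoglutarate. Idh3a (1367911_at, mean level 10.01) had -11.2, -6.89, 61.0 and -37.5 millionths after WPH, against -52.5, 1.5, 44.7 and 0.970 millionths after AAM. It was the exception of the 9 genes, with its highest value in WPH replicate 3. Its standardized difference was 0.0654 (-1.32 to 1.45, exact permutation p = 0.886). Idh3b (1388160_a_at, mean level 12.59) moved within 5.07 millionths in all. It had -0.231, 0.169, 0.259 and -1.44 millionths after WPH, against -2.62, 0.879, 2.45 and 0.539 millionths after AAM. All 4 WPH arrays lay between the lowest and the highest AAM array, and the standardized difference was -0.389 (-1.78 to 1.03). Idh3g (1370865_at, mean level 12.08) had -0.690, -0.560, 1.09 and -0.780 millionths after WPH, against -2.92, 0.0100, 2.69 and 1.16 millionths after AAM. Its WPH arrays too lay inside the AAM range, with a standardized difference of -0.262 (-1.65 to 1.14).

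Ogdh and Dlst encode the E1 and E2 components of the 2-oxoglutarate dehydrogenase complex, which makes succinyl-CoA. Ogdh (1390020_at, mean level 11.16) had -6.58, -0.0750, 5.52 and -14.8 millionths after WPH, against -10.3, -3.40, 52.3 and -22.6 millionths after AAM. Only AAM replicate 3 stood above the WPH arrays, and the other 3 AAM arrays lay below the highest WPH array. The standardized difference was -0.329 (-1.71 to 1.08, exact permutation p = 0.857). Without AAM replicate 3 it was 0.887. Dlst (1370879_at, mean level 10.52) had -21.1, -23.4, -18.7 and -20.2 millionths after WPH, against -27.9, 27.6, 90.0 and -6.25 millionths after AAM. The 4 WPH rats were close together, with an SD of 1.98 millionths against 51.4 after AAM, and 3 of the 4 AAM arrays lay above all of them while AAM replicate 1 lay below. The standardized difference was -1.15 (-2.63 to 0.416, limma p = 0.137, exact permutation p = 0.143).

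Suclg1 encodes the alpha subunit of succinate-CoA ligase, which turns succinyl-CoA into succinate. It (1367642_at, mean level 10.94) had -36.8, 19.3, 13.7 and 19.6 millionths after WPH, against -67.1, 10.3, 72.4 and -31.5 millionths after AAM. After WPH 3 arrays lay together and replicate 1 below them. The groups overlapped, and the standardized difference was 0.171 (-1.22 to 1.55).

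Mdh1 and Mdh2 encode the cytosolic and the mitochondrial malate dehydrogenase. Mdh2 closes the cycle, and Mdh1 works with it in the malate-aspartate shuttle, which carries reducing equivalents into the matrix. Mdh1 (1367653_a_at, mean level 13.11) had -4.29, -1.35, -3.93 and -6.33 millionths after WPH, against -0.999, 5.57, 15.4 and -4.06 millionths after AAM. AAM replicates 1, 2 and 3 lay above all WPH arrays, and AAM replicate 4 lay among them. This was the largest of the 13 standardized differences, -1.27 (-2.78 to 0.323), with a limma p of 0.106, an adjusted p of 0.9998 and an exact permutation p of 0.0857, where 0.0286 is the smallest possible. The other Mdh1 probe set, 1372790_at (mean level 9.90), did not share it. It had 174, -188, -125 and 212 millionths after WPH, against -95.3, -137, 348 and -189 millionths after AAM. Its values fell into a high set of WPH replicates 1 and 4 with AAM replicate 3 and a low set of the other 5 arrays, and its standardized difference was 0.161 (-1.23 to 1.54). Mdh2 (1369927_at, mean level 11.92) had -9.75, -6.65, 7.15 and 9.33 millionths after WPH, against -16.7, 2.27, 13.8 and 0.487 millionths after AAM. Of the 9 genes it was the one with the closest group means, with a standardized difference of 0.00313 (-1.38 to 1.39).

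**Figure D2:**
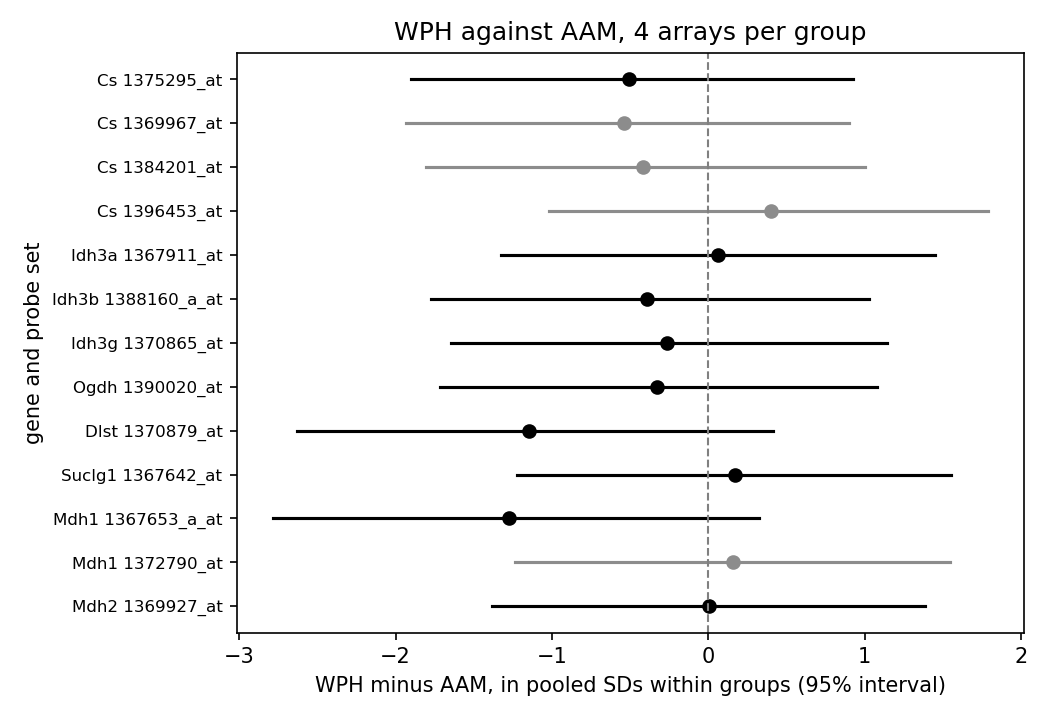
Standardized difference, WPH minus AAM in pooled SDs within groups (horizontal axis), with its 95% interval, for the 13 probe sets (4 arrays per group). Black marks each gene's brightest probe set and grey the others. Every interval includes 0, and the values run from -1.27 for Mdh1 1367653_a_at to 0.404 for Cs 1396453_at.

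Counted by gene, 6 of 9 enzymes had a lower mean after WPH and 3 a higher one, where 53.9% of all genes were lower after WPH, and 51.4% of those with a level above 10. Their median standardized difference was -0.329, beside -0.0582 over all genes. No member's groups failed to overlap, a state that 2.23% of all probe sets reached. The count depended on which arrays were used. Without AAM replicate 3, 6 of 9 were higher after WPH and the median was 0.233. With a further array dropped beside it, after the data were seen, the count was again 3 of 9 higher. The median was then -0.0672 without both arrays numbered 3 and -0.646 without AAM replicates 1 and 3. Without AAM replicate 1 all 9 genes were lower after WPH and the median was -1.11. Without WPH replicate 3, 1 of 9 was higher, with a median of -0.496. No probe set of the 13 was called in any of these fits, and their lowest adjusted p by limma was 0.9996.

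**Figure D3:**
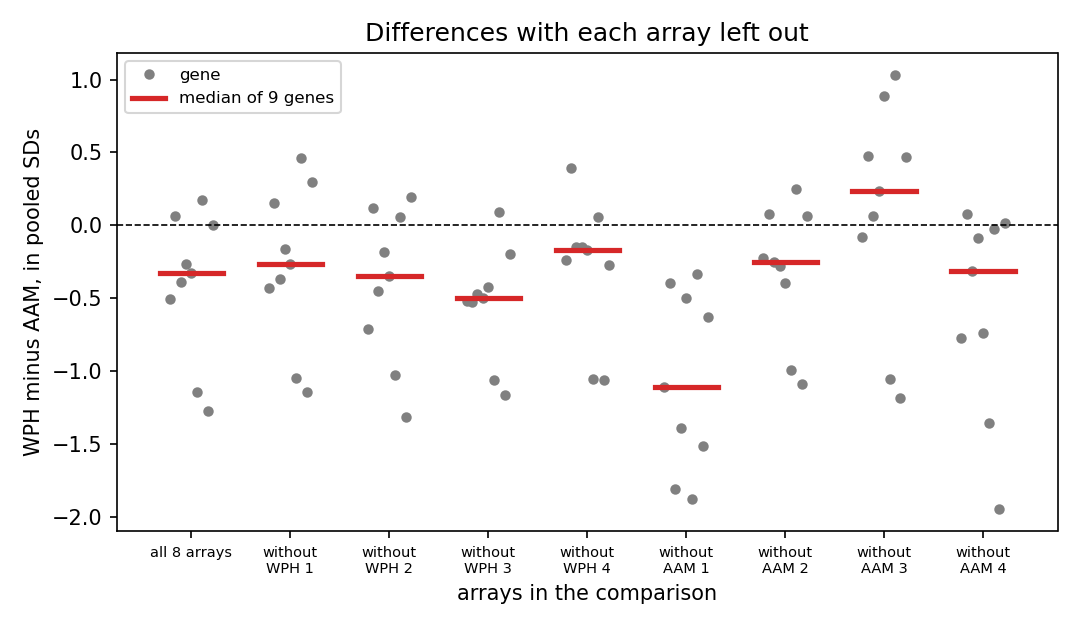
Standardized difference, WPH minus AAM (vertical axis, pooled SDs), of the 9 genes (grey points) and their median (red bar), with all 8 arrays and with each array left out in turn (horizontal axis). The median is -0.329 with all arrays, -1.11 without AAM 1 and 0.233 without AAM 3.

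The spread between arrays was larger in the AAM group for most of the 9 genes, as a description with no test. The genes share the same arrays and are not independent of each other in this count. The SD was larger among AAM arrays than among WPH arrays for 8 of 9 genes, all but Idh3a, where this held for 61.5% of all genes and 70.4% of those with a level above 10. The ratio of the SDs, AAM over WPH, ran between 0.948 for Idh3a and 25.9 for Dlst. The mean z-score of the 9 genes was -0.492, -0.101, 0.288 and -0.461 on the WPH arrays, against -1.16, 0.391, 1.74 and -0.212 on the AAM arrays. It averaged -0.191 ± 0.366 (SD, n = 4) after WPH, against 0.191 ± 1.21 (SD, n = 4) after AAM, so the WPH arrays lay within the range set by AAM replicates 1 and 3. Of 9 lists of cell type markers, AAM replicate 3 was the highest array in 0 and AAM replicate 1 the lowest in 0. Some lists were higher in the first of these arrays than in the second, and others lower. Mean z-scores of slow fibre markers were 0.0708 in AAM replicate 3 and 0.0107 in AAM replicate 1, those of fast fibre markers -0.685 and -0.315, and those of adipocyte markers 0.640 and 0.729. They were 0.815 in AAM replicate 3 and -0.478 in AAM replicate 1 for the 3 measured erythrocyte markers, 0.644 and -0.287 for fibroblast markers, and 0.613 and -0.131 for endothelium markers. Macrophage markers had 0.283 and 0.900, nerve and Schwann cell markers -0.151 and -0.193, and skin and epithelium markers 0.286 and -0.0506. The part of these cell types in the pattern was not tested. The summed level of the 9 slow fibre markers was 95.20 to 95.29 after WPH and 95.20 to 95.26 after AAM. That of the 10 fast fibre markers was 132.992 to 132.993 in each group, a span of 0.00128 over the 8 arrays. The mean z-score of the fast fibre markers was highest in WPH replicate 4 (1.23). For these lists 2 of 9 and 9 of 10 markers were higher after WPH and 0 passed the test. In whole muscle, fewer fibres or cells of a type and less RNA per cell cannot be told apart.

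The enzyme genes varied together from array to array. Each array held the RNA of 1 rat, so differences between rats and between arrays cannot be told apart. Over the 8 arrays the 36 pairs of genes had a mean Pearson correlation of 0.697, and all 36 were above 0. Over all pairs of the 14217 genes the mean was 0.00155, and over pairs of genes with a level above 10 it was 0.00991. These are descriptions, since all pairs share the same 8 arrays. In a mean over all genes, pairs above and below 0 can cancel. Without AAM replicate 3 the mean of the 36 pairs over 7 arrays was lower, 0.418, with 33 above 0, beside 0.00195 over all genes. Without AAM replicates 1 and 3 it was 0.279 over 6 arrays, with 28 of 36 above 0, beside 0.00207 over all genes. The highest value with all arrays was that of Dlst and Mdh1 (0.943) and the lowest that of Mdh1 and Mdh2 (0.391). Over 7 arrays the highest was between the isocitrate dehydrogenase subunits Idh3b and Idh3g (0.855), and both had 0.726 or more with Idh3a. Mdh1 and Mdh2 had -0.180 over these 7 arrays.

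**Figure D4:**
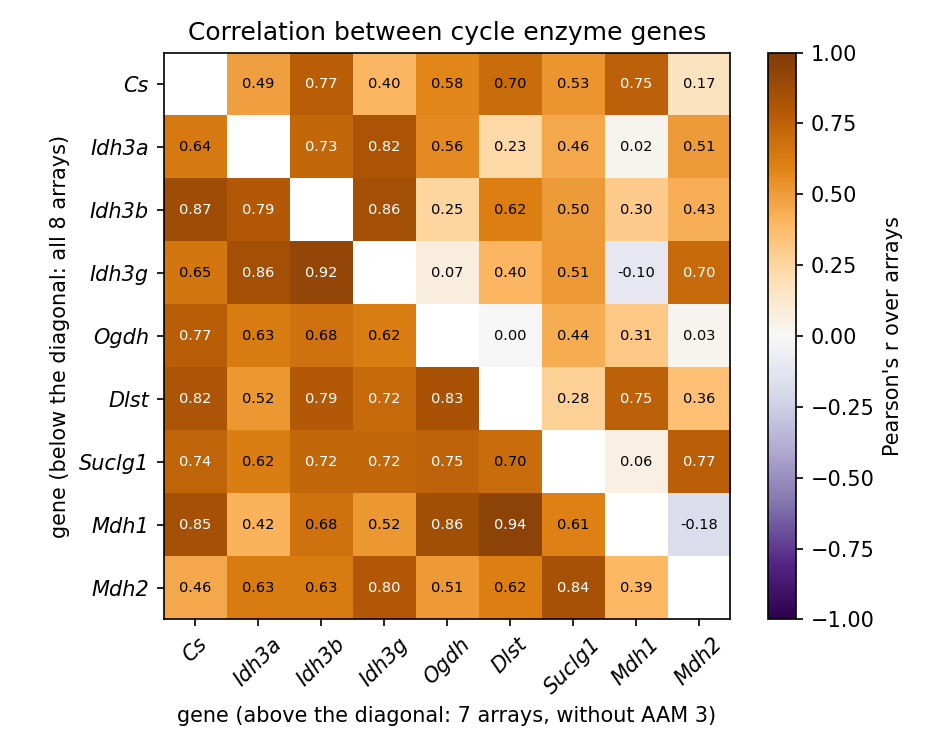
Pearson's r between each pair of the 9 genes, over all 8 arrays below the diagonal and over 7 arrays without AAM 3 above it. All 36 values below the diagonal are above 0, with a mean of 0.697, and 33 of 36 above it, with a mean of 0.418.

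The promoters of the pairs with the highest correlations, Idh3b with Idh3g over 7 arrays and Dlst with Mdh1 over 8, are shown so that their sequences can be compared. They come from RefSeq (GRCr8) and run from 250 bases before the gene's start to 50 bases from it. Of the 9 genes 8 had a promoter in that table, and Idh3a did not. Capitals mark matches to CCGGAAG, the core of sites bound by ETS factors, and to GGGCGG, the GC box bound by Sp1, on either strand.
Idh3b promoter (chr3:137939941-137940240, minus strand): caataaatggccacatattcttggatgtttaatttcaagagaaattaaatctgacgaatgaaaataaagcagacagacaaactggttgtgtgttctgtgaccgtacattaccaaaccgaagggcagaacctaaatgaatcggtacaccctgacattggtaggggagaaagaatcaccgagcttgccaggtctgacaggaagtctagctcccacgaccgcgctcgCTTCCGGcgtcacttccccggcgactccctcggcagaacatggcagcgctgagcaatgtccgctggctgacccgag
Idh3g promoter (chrX:156675433-156675732, minus strand): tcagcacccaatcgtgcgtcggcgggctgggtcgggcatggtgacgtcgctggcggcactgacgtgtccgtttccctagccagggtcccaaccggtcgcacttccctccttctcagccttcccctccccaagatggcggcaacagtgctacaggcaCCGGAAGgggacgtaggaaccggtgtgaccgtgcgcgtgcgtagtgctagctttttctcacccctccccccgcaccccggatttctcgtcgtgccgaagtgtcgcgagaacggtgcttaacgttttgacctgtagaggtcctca
Dlst promoter (chr6:110489456-110489755, plus strand): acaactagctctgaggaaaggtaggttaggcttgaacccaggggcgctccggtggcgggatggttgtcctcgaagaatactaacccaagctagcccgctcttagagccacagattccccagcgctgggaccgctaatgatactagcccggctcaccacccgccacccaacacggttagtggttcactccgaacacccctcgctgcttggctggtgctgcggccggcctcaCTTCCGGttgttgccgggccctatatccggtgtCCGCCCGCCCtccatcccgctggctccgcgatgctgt
Mdh1 promoter (chr14:99847178-99847477, minus strand): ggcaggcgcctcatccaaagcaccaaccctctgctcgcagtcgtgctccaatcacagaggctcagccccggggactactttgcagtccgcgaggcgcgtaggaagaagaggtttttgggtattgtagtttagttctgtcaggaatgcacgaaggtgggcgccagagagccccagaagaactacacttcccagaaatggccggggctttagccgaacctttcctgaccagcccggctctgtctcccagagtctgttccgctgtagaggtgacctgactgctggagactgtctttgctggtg

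CCGGAAG, which starts at -26 in Idh3b on the opposite strand, at -94 in Idh3g and at -20 in Dlst on the opposite strand (the gene's start is 1), was in 4 of the 8 promoters, the fourth being that of Mdh2. It was in 8.75% of all 33469 promoters of this length. GGGCGG was in 4 of 8 (Cs, Ogdh, Dlst and Mdh2) and in 33.1% of all, and its matches in Dlst overlap each other. These motifs were searched after TNAAGGTCA, bound by estrogen-related receptors, and the motif of NRF1, which were in 0 of 8 windows and in 1.20% and 4.25% of all promoters. A match is a description of these letters in this window only, and GC content, 50.3% to 65.0% in the 8 promoters, had a median of 51.7% over all. The promoters of Mdh1 and Suclg1 held no match to any of these motifs.

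Other genes around the cycle gave 40 measured genes in 7 lists, and 0 of them passed the test in either direction, with 12 higher and 28 lower after WPH. By limma 1 of 40 (2.5%) had an unadjusted p below 0.05, beside 3.58% of all probe sets. It was Slc25a13, one of the mitochondrial aspartate-glutamate carriers of the malate-aspartate shuttle. Slc25a13 was dim, with a mean level of 6.88, where the skin and epithelium markers reached 6.79. It had -78.5, -197, -46.1 and -121 millionths after WPH, against 90.0, 121, 299 and -67.5 millionths after AAM, so that AAM replicate 4 overlapped the WPH arrays. Its standardized difference was -1.91 (-3.60 to -0.120, n = 4 per group), with a limma p of 0.0276, an adjusted p of 0.9998 and an exact permutation p of 0.0571. Its partner gene Slc25a12 (mean level 10.98) had -0.682.

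Of the other enzymes of the cycle, 6 were measured, 1 higher and 5 lower after WPH. They had standardized differences from -0.915 for Sdha, the flavoprotein subunit of succinate dehydrogenase, to 0.490 for Suclg2, the GTP-linked beta subunit of succinate-CoA ligase. Of the pyruvate dehydrogenase complex, which makes acetyl-CoA from pyruvate, 1 of 4 measured genes was higher after WPH, and Pdhx and Dld, the E3 component that 2-oxoglutarate dehydrogenase also uses, had -0.984 and -0.792. Of the kinases and phosphatases that switch that complex off and on, 4 of 7 were higher, with Pdp1 at -0.931 and Pdp2 at 0.843. Among relatives outside the cycle, Aco1, the cytosolic aconitase, had -0.698 and Idh1, the cytosolic NADP-linked isocitrate dehydrogenase, -0.224. Dhtkd1 (mean level 6.64) had -0.254. Of 11 genes that fill or drain the cycle 5 were higher. Me1, the cytosolic malic enzyme, had 1.04 and Pck2, the mitochondrial phosphoenolpyruvate carboxykinase (mean level 6.72), -0.951. The levels of Dhtkd1 and Pck2 lay within the range of the skin and epithelium markers. Of 7 mitochondrial carriers of cycle intermediates 1 was higher. The 95% interval of each gene named here other than Slc25a13 includes 0.

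For the pattern across arrays, AAM replicate 3 was highest for 17 of 40 (42.5%) and AAM replicate 1 lowest for 11 of 40 (27.5%). Genes with a level above 10 had 27.4% and 29.7%, and all genes 18.6% and 15.6%. AAM replicate 3 highest and AAM replicate 1 lowest both held for 6 of the 9 cycle enzymes (Cs, Idh3b, Idh3g, Dlst, Suclg1 and Mdh2). Both also held for 8 of the 40 (20.0%), for 5.34% of all genes and for 15.5% of those with a level above 10. Chosen after their values were seen, the 8 were Sucla2, Sdhb, Sdhc, Sdhd, Gpt, Mpc1, Mpc2 and Slc25a11. Sucla2 is the ATP-linked beta subunit that pairs with Suclg1, Sdhb, Sdhc and Sdhd are subunits of succinate dehydrogenase, and Mpc1 and Mpc2 form the mitochondrial pyruvate carrier. Sucla2 had -9.15, -3.65, 1.09 and -1.80 millionths after WPH, against -24.1, 7.96, 33.4 and -3.81 millionths after AAM. Its WPH arrays lay between AAM replicates 1 and 3.

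Of the 14208 genes outside the 9 enzymes, the 5 most like their mean z-score over the 8 arrays were Fuom, Epas1, Mif, Mpc2 and Oxct1. Pearson's r with that profile was 0.996, 0.988, 0.986, 0.984 and 0.983 in this order, and Spearman's rho was 0.976 for each but Mpc2, which had 0.952. Without AAM replicates 3 and 1, the arrays farthest from the median of the profile, r was between 0.924 for Mif and 0.978 for Fuom over 6 arrays. These genes were picked for their likeness, so the values are a description. Fuom encodes fucose mutarotase, Epas1 a hypoxia-inducible transcription factor subunit, Mif macrophage migration inhibitory factor and Oxct1 the enzyme that activates ketone bodies for oxidation. Their standardized differences between the meals ran from -0.663 for Mif to -0.384 for Epas1, and none passed the test.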

How the data were processed

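RNA of 8 epitrochlearis muscles (4 WPH, 4 AAM) was hybridised to 1 array each, with 100 ng of RNA as the starting amount per the labels. The authors' deposited values, 1 per probe set and array, lie between 5.28 and 14.2 on a log2-like scale. The submitters' processing notes name R 2.7.2. The sources used here do not give the background correction, the normalization or the summary method, and scanner files were not used here, so scale and centring stay unknown. The array median rounds to 6.66 on every array. Without the controls it ran from 6.66279 in AAM replicate 2 to 6.66285 in AAM replicates 3 and 4. At the scale of millionths the arrays were thus not equally centred.

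Of 31099 probe sets, 57 controls were left out. Symbols came from the platform annotation: 20826 probe sets had 1 symbol, 436 had several and 9780 had no name here. All 9 member symbols were current in the GRCr8 gene table. For counts by gene, a gene stood by its brightest probe set, the one with the highest mean. The meals were compared with limma 3.58.1 under R 4.3.3, by lmFit and eBayes on the values as deposited (two-sided) over all 31042 probe sets. P-values were adjusted by Benjamini-Hochberg over all of them, with 0.05 as the threshold. The procedure was tested on 31042 simulated probe sets, some given a known difference between the meals. Where that difference was 3 SD, 12 of 67 passed the threshold. At 6 SD 54 of 67 passed, and at 12 SD 66 of 66. False calls numbered 10. Most differences of 3 SD were thus missed, and those of the cycle enzymes were all smaller. The lack of calls among them therefore does not show that the meals had equal effects. Exact permutation tests used the 35 splits of 8 arrays into 4 and 4. Intervals of standardized differences use the noncentral t with 6 degrees of freedom. The number of arrays limits the precision.

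The named genes were every member, the 2 genes of each of 7 pathway lists with the smallest unadjusted p (and any past the threshold), and the 5 genes most correlated with the members' mean z-score. Members and lists were chosen with earlier results of these data known. The alternatives were quantile normalization, median centring, brighter probe sets only, a replicate block, each array left out, a fourth-root scale, array weights, a trended robust prior, a threshold of 0.1 and the mean over a gene's probe sets. Dropping both arrays numbered 3, or AAM replicates 1 and 3, was added after the data were seen.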

Additional observations from a re-analysis of the deposited data

Results flagged for a closer look

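By Dixon's ratio, a single array lay far outside its own group of 4 in 3 of 54 tested groups of members, other named pathway genes and the members' mean z-score, where 2.7 are expected by chance. All 3 were among the WPH arrays: Cs 1396453_at was low in replicate 4 (0.877), Idh3g was high in replicate 3 (0.882) and Suclg1 was low in replicate 1 (0.895).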

How the results depend on the processing

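With each array left out in turn, between 0 and 6 of the 9 genes were higher after WPH, the median standardized difference ran from -1.11 to 0.233, and 0 probe sets were called in all. The 13 probe sets had these ranges: Cs 1375295_at -1.11 to -0.0793, Cs 1369967_at -1.05 to -0.0376, Cs 1384201_at -0.849 to 0.0163, Cs 1396453_at -0.107 to 1.04, Idh3a -0.528 to 0.474, Idh3b -1.81 to 0.0660, Idh3g -1.39 to 0.233, Ogdh -0.741 to 0.887, Dlst -1.87 to -0.994, Suclg1 -0.333 to 1.03, Mdh1 1367653_a_at -1.95 to -1.06, Mdh1 1372790_at -0.123 to 0.986 and Mdh2 -0.630 to 0.467. Dlst, Mdh1 1367653_a_at and the first 2 Cs probe sets kept their direction in these fits. Quantile normalization gave 5 calls over all probe sets by limma, 0 of them members: Gucy2e, Asph, Gpld1, an unnamed probe set (higher after WPH) and Cox8a (lower), none with any spread within groups. It left 8 of the 13 member probe sets, and 8 of 9 genes, with the same value on every array, so that 1 gene, Idh3b (0.463, also the median), was higher. Cs 1369967_at then had 0 and Cs 1396453_at -0.365. With median centring 0 of 9 were higher, with Cs 1396453_at at -0.413, Idh3a -0.232, Suclg1 -0.0786 and Mdh2 -0.515. On the fourth-root scale Idh3a had -0.549, Ogdh 0.0112 and Mdh2 -0.266, and with array weights Mdh2 had -0.0012. Without both arrays numbered 3, Idh3a had -0.0743 and Ogdh 0.574, and without AAM replicates 1 and 3 Ogdh had 0.887 and Mdh2 -0.163. The causes were not tested. Same-numbered arrays of the meals had correlations of their deviations of 0.157, 0.134, 0.0640 and -0.0708 over probe sets. Of the WPH arrays, 3 of 4 correlated best with their own number. The labels do not say that the numbers pair the rats, so the main fit had no pairing. Whether same-numbered arrays shared a batch was not tested. With the replicate block 3 of 9 genes were higher, the median was -0.417, 0 probe sets were called and 1367 had an unadjusted p below 0.05. That count was 1110 with no alternative, 486 with quantile normalization, 172 with median centring and 447 among the 15521 brighter probe sets. In all, 182 of 213 alternative values of single probe sets kept their direction and none passed the threshold. These include the fits on brighter probe sets only and with the trended robust prior. Those fits change p-values but not standardized differences, so their directions could not reverse.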
